A study of Mus musculus with 40 samples.

Results

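The duodenum of mice given WUSTL0717 after small bowel resection (SBR) was set against the ileum of mice given the same drug after the same operation. The comparison rested on 8 libraries chosen by sample title, 4 labelled duodenum SBR WUSTL0717 and 4 labelled ileum SBR WUSTL0717, out of 22 intestinal libraries and 40 libraries in the series. It asked which genes differed between the ends of the remaining small intestine under the drug, and for which genes the response to the drug depended on the region.

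All animals were wild-type C57BL/6 males operated on at 8 weeks of age. The labels give the resection as 50 to 60% of the small bowel, and the study's methods give a larger share. WUSTL0717 was given daily at 30 mg/kg by mouth for 7 weeks, beginning 3 weeks after the operation. The vehicle groups used beside it were SBR vehicle (4 duodenum and 4 ileum libraries) and sham vehicle (3 and 3). The ileum of the resected mice was the segment beyond the anastomosis, so it had been rejoined to the proximal bowel. Sham bowel was also cut near the end of the ileum and sewn together again, with no segment removed. There was 1 sex, 1 dose and 1 time point. Whether a duodenum and an ileum library with the same number came from 1 mouse is not given in the sources used here. RNA came from whole tissue, so fewer cells of a type and less RNA per cell cannot be told apart.

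WUSTL0717 is an amide analog of the agonist GW3965, made to act on liver X receptors (LXRs) within the gut. LXRs are nuclear receptors that bind oxidised cholesterol, pair with RXR on DNA and raise genes for cholesterol efflux (Abca1, Abcg1, Abcg5, Abcg8) and for fatty acid synthesis (Srebf1, Scd1, Fasn). The duodenum receives bile and pancreatic juice and takes up iron, calcium and folate, and its enterocyte identity is set by Pdx1 and GATA factors. The ileum takes back bile acids and vitamin B12 and is rich in Paneth cells, which make antimicrobial defensins. PPARs are a further family of nuclear receptors, which drive fatty acid oxidation.

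Values were deposited as log2 TPM, a transcript abundance scaled for length and depth, after a batch adjustment. On a plain log2 scale a difference of 1 is a 2-fold ratio. Whether the adjustment kept that scale for each gene is not given in the sources used here, so differences are in the deposited units. The adjustment acted on each gene separately, so levels were compared between groups for the same gene and not between genes. Of 15958 genes, 15923 had a mean of at least 1 over the 22 intestinal libraries and were tested with limma, a linear model that shares the spread across genes. As deposited, 1136 genes (7.13%) were higher in duodenum and 7759 (48.7%) higher in ileum at an adjusted p under 0.05. The ileum libraries were higher throughout, with medians over genes of 3.26 to 3.83 against 2.38 to 2.89, and the median difference of all genes was -0.95. With each library centred on its own median, 2522 genes (15.8%) were higher in duodenum and 2215 (13.9%) higher in ileum, so the share of calls that were higher in duodenum went from 12.8% to 53.2%. After quantile normalization that share was 44.8%. In both the deposited and the centred values 1136 genes were higher in duodenum and 2215 higher in ileum, and none changed sign between them. Counts below are given as deposited and then centred, and list medians are given relative to the median of all genes. Each regional list count is to be read against the shares of all tested genes. These were 7.13% in duodenum and 48.7% in ileum as deposited, and 15.8% and 13.9% centred.

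The tissue labels were checked against markers. Pdx1 and Tmprss15 marked every duodenum library, and Slc10a2 and Fabp6 every ileum library. Pancreas genes were higher in duodenum for 9 of 10 tested (10 of 10 centred), with a mean level of 4.26 to 7.39 against -0.34 to -0.22 in ileum. Brunner gland markers Muc6 and Tff2 were both higher in duodenum, and gastric markers ranged from 0.66 to 5.77 there, with Gkn2 at 8.55 in duodenum library 1 and listed at 0 in the other libraries of the comparison. Epithelial markers were higher in ileum for 7 of 8 (6 of 8 centred), fibroblast markers for 6 of 7 (4 of 7 centred) and endothelial markers for 6 of 6 (5 of 6 centred). Smooth muscle markers were higher in ileum for 5 of 8 and for 0 of 8 once centred. Adipocyte markers were higher in ileum for 2 of 3 in both scalings, and 1 was higher in duodenum once centred. Ileum library 2 stood apart, with the highest median over genes (3.83) and a mean of hepatocyte markers of 8.32 against 6.28 to 6.58 in the other 3 ileum libraries. The part of these mixtures in the results that follow was not tested, except where values without duodenum library 1 or ileum library 2 are given.

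Promoter sequences are shown for 5 genes on which the comparisons below turn: a gene of duodenum and a gene of ileum, and 3 of the 4 genes whose drug response differed between the regions. Each window of 300 bases, of which the last 50 follow the annotated start, is printed 5′ to 3′ in the direction of the gene from RefSeq on GRCm38.p6, with positions counted back from that start. Capitals mark matches, on either strand, to the motif named beside each gene, and matches to the other motifs are left in lower case. The motifs were the nuclear receptor half-site AGGTCA, the GATA motif as AGATAA or TGATAA, and the CDX motif TTTATNG. Among 32851 promoters of the same length, 16.3% held AGGTCA, 18.6% a GATA motif and 10.9% the CDX motif, so single matches are common.
Sult6b2, chr6:142804417-142804716, minus strand, with GATA motifs in capitals at -157 and -142: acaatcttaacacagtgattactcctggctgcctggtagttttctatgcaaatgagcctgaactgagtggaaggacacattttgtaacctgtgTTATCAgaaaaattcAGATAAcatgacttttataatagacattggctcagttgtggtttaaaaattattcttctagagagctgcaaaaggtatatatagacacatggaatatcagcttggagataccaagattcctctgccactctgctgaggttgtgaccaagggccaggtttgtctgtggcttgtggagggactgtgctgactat
Slc10a2, chr8:5105238-5105537, minus strand, with CDX motifs in capitals at -175, -62 and -52: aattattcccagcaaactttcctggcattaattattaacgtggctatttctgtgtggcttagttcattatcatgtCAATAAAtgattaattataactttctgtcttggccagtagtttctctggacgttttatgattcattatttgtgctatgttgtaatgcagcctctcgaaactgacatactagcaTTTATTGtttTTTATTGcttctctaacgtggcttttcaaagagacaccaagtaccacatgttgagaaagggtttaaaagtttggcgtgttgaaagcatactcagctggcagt
Ugt1a9, chr1:88070529-88070828, plus strand, with the half-site in capitals at -201: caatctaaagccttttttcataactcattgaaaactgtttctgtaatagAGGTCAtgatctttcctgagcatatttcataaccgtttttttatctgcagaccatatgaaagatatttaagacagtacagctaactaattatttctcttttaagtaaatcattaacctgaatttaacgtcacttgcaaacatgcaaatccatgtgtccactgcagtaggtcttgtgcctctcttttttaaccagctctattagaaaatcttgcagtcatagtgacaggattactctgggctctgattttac
Ephx1, chr1:181017520-181017819, minus strand, with no half-site letters in this window: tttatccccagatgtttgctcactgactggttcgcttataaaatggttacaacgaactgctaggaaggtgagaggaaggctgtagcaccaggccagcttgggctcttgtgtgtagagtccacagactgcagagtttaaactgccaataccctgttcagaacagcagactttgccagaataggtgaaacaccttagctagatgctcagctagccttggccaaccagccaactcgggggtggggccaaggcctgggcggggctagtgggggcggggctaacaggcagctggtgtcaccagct
Acot1, chr12:84009252-84009551, plus strand, with no half-site letters in this window: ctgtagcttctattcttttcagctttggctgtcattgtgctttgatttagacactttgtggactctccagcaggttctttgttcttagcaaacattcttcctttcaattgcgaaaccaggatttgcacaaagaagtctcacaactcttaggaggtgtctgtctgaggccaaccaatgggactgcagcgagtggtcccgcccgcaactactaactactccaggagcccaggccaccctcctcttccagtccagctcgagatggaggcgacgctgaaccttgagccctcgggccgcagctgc
A match is a description of letters and was not tested as a binding site. The Ephx1 window lies inside the gene span given below and not at its 5′ end. Its lack of a half-site therefore holds for this annotated start only.

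The 15 genes with the smallest p in duodenum began with a channel gene. Otop3, a proton channel, was at 5.07, 4.65, 5.01 and 4.87 in the 4 duodenum libraries and at -0.95, -0.83, -0.86 and -0.76 in the 4 ileum libraries, a difference of 5.75 (SE 0.23, limma adjusted p = 1.68e-13). Pdx1, the homeobox factor of duodenum and pancreas, was at 4.55, 3.89, 4.30 and 4.58 against -0.63, -0.83, -0.84 and -0.81. The groups lay more than 4 log2 units apart in both genes. Plut, a long noncoding RNA that overlaps Pdx1, differed by 3.27, and since the strand of counting is not given in the sources used here, reads of the pair cannot be separated. Onecut2, a cut homeobox factor, differed by 4.56 (SE 0.22, limma adjusted p = 1.83e-12). Sult6b2, a sulfotransferase whose promoter is printed above, had the widest gap of the 15, with 5.89, 6.33, 5.98 and 6.32 in duodenum and -1.30, -1.15, -1.30 and -1.28 in ileum, a difference of 7.39 (SE 0.43). Papss2, which makes the sulfate donor for sulfotransferases, differed by 4.55 with duodenum libraries from 9.52 to 9.62. Reg1, a secreted lectin of pancreas and gut, differed by 6.49. Tmprss15, the enteropeptidase that activates trypsin, was between 4.07 and 4.59 in duodenum and was listed at 0 in all 4 ileum libraries, so no ratio is given. Car2, a carbonic anhydrase of bicarbonate secretion, differed by 4.35. The solute carriers Slc16a9, Slc37a2, Slc19a3 (thiamine) and Slc46a1 (folate) differed by 3.72, 3.50, 3.07 and 4.33. Gsta2 and Cbr3, which detoxify electrophiles and carbonyls, differed by 4.61 and 4.75. Gsta2 has near-identical relatives whose reads may be shared.

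The 15 genes with the smallest p in ileum began with a transporter gene. Slc34a2, a phosphate transporter, was at 5.51, 5.46, 5.69 and 5.33 in ileum and at -0.69, -0.73, -0.75 and -0.53 in duodenum, a difference of -6.18 (SE 0.20, limma adjusted p = 5.17e-15). Slc10a2, the sodium-dependent bile acid transporter, was at 6.67, 7.19, 6.64 and 6.16 in ileum and at 0.95, 0.80, 0.53 and 0.53 in duodenum, a difference of -5.96 (SE 0.25). Every ileum library was above every duodenum library for both. Fabp6, which carries bile acids inside the enterocyte, differed by -8.71, with ileum from 7.71 to 8.54 and duodenum from -1.69 to 0.53. Cubn, part of the receptor for vitamin B12 bound to intrinsic factor, differed by -5.71. Slc5a8, a short-chain fatty acid transporter, differed by -5.21, and Naaladl1, a peptidase of the brush border, by -5.60. Osr2, a zinc-finger factor, differed by -4.75, and Ddah1, which breaks down dimethylarginine, by -4.67. Nts, the hormone neurotensin, differed by -5.24. The alpha-defensins Defa21 and Defa22 differed by -8.93 and -9.29, Defa2 by -8.11, and Defa20, Defa32 and the nucleotide receptor gene P2ry4 were listed at 0 in all 4 duodenum libraries. Defensin genes are near-identical copies and only uniquely aligned reads were counted, so the split between them is uncertain. In each of these 30 genes the libraries of the regions did not overlap, against 47.8% of all tested genes. Not overlapping was part of the rule that chose the 30. That rule also fixed the exact two-sided permutation p at 0.0286, the smallest that 4 against 4 libraries allow. This p therefore adds no support.

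**Figure D1:**
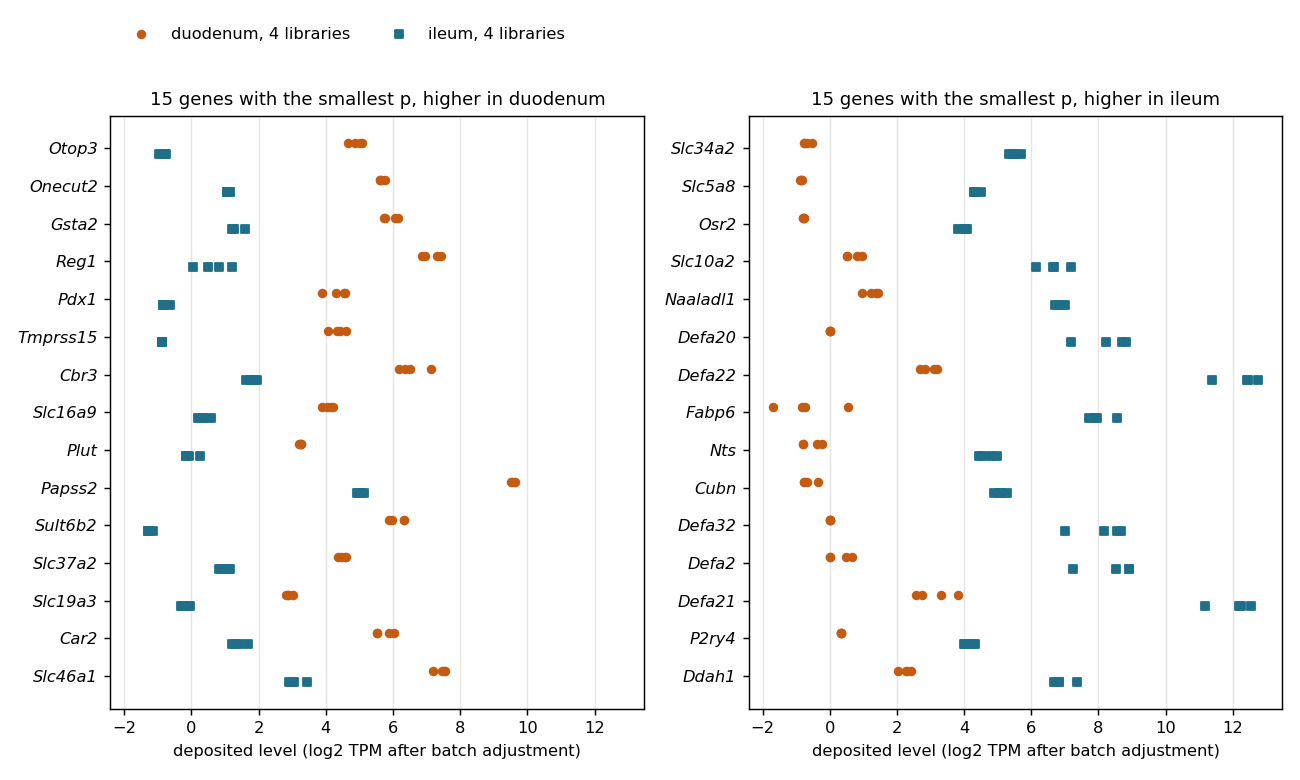
Level of the 15 genes with the smallest p in each direction, one point per library under WUSTL0717 (log2 TPM after batch adjustment on the horizontal axis; circles duodenum, squares ileum, 4 libraries each). By the rule that chose the 30 genes, no library of a region reaches the other region. The sulfotransferase Sult6b2 at 5.89 to 6.33 against -1.30 to -1.15 shows the widest gap on the left.

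Transcription factors of regional identity went both ways. Of 20 tested, 6 were higher in duodenum and 11 higher in ileum (7 and 8 centred). Of all tested genes 7.13% and 48.7% were (15.8% and 13.9% centred). The list's median was 0.02 above that of all genes, so its ileal count as deposited was near the general share. Nr1i3, the xenobiotic receptor CAR, differed by 3.30, with 4.63, 4.89, 4.62 and 4.88 in duodenum against 1.34, 0.93, 1.45 and 2.09 in ileum. Hoxb6, a homeobox factor, differed by -3.10. Gata4, a zinc-finger factor of the proximal gut, was at 6.24, 5.74, 5.99 and 6.19 in duodenum and at 3.44, 0.42, 3.56 and 4.24 in ileum, a difference of 3.12 (SE 0.58, limma adjusted p = 0.000224). The low value came from ileum library 2, and the groups did not overlap with or without it.

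Bile acid genes lay on both sides. Beside Slc10a2 and Fabp6, the basolateral exporter subunits Slc51a and Slc51b were higher in ileum, with differences of -2.02 and -1.62, as was Nr1h4, the bile acid receptor FXR, at 7.76, 8.44, 7.81 and 6.57 against 4.98, 5.60, 5.87 and 5.20. Slc51b did not pass the test once the libraries were centred (limma adjusted p = 0.127). The FXR target Nr0b2, the repressor SHP, lay the other way, at 7.17, 5.63, 7.09 and 6.22 in duodenum against 3.31, 3.76, 3.57 and 2.39 in ileum, a difference of 3.27 (SE 0.39). The conjugate exporters Abcc2 and Abcc3 were also higher in duodenum, by 2.31 and 2.89. In all, 6 of 9 tested members were higher in ileum and 3 higher in duodenum (4 and 3 centred). All 5 vitamin B12 genes were higher in ileum as deposited and 3 once centred (Cubn, the cubilin partner Amn, and the carrier Tcn2).

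Mineral and folate uptake was a duodenal group. Of 16 tested genes 9 were higher in duodenum and 3 higher in ileum (13 and 1 centred), with a median 2.89 above that of all genes. S100g, the calcium-binding protein calbindin-D9k, was at 7.45, 7.71, 8.18 and 7.51 in duodenum and at 0.16, 1.69, 0.67 and 0.70 in ileum, a difference of 6.91 (SE 0.47, limma adjusted p = 4.47e-10). The iron genes Fth1 (ferritin heavy chain), Slc40a1 (the exporter ferroportin) and Cybrd1 (the surface ferric reductase) differed by 3.71, 3.38 and 2.53. Ranges did not overlap for these 4 genes.

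Fat absorption leaned to the duodenum. Of 24 tested genes 11 were higher there and 3 higher in ileum (13 and 0 centred), and their median lay 1.73 above that of all genes. Scarb1, a lipid scavenger receptor, was at 6.72, 6.33, 6.61 and 6.87 against 3.05, 3.76, 2.92 and 3.09. Fabp1, which binds fatty acids in the enterocyte, differed by 4.02, Mttp, which loads triglyceride onto apolipoprotein B, by 2.97, Plin2, a lipid droplet coat, by 2.56, and Sar1b, which carries chylomicrons out of the endoplasmic reticulum, by 2.13. Npc1l1, the cholesterol importer, lay the other way by -1.31 and did not pass centred (limma adjusted p = 0.191). Apoa4 and Apoc3, apolipoproteins of chylomicrons, differed by 2.28 and 1.66, and the difference in Apoc3 was 1.24 without ileum library 2 and did not pass (limma adjusted p = 0.1).

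Among 21 brush border enzymes 5 were higher in duodenum and 12 in ileum (7 and 8 centred). Akp3, an intestinal alkaline phosphatase, was at 7.98, 7.52, 7.92 and 7.73 in duodenum and at -0.58, -0.46, -0.09 and -0.15 in ileum. The peptidases Mep1a, Xpnpep2 and Enpep were higher in ileum, with differences of -3.95, -3.82 and -3.81. Among 21 transporters and sugar enzymes 4 were higher in duodenum and 11 in ileum (5 and 5 centred), against 48.7% of all tested genes in ileum as deposited, and the list's median was 0.02 above that of all genes. The amino acid transporter genes Slc3a1, Slc43a2, Slc7a7 and Slc1a1 were higher in ileum, with differences of -2.54, -2.52, -1.97 and -1.89. Slc6a19, the main carrier of neutral amino acids, differed by -1.25 and did not pass centred (limma adjusted p = 0.307).

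Of 23 Paneth and antimicrobial genes 21 were higher in ileum and 1, Reg1, higher in duodenum (19 and 2 centred), with a median of -3.07 relative to all genes. Lysozyme Lyz1 was at 7.80, 7.84, 6.94 and 7.99 against 3.69, 4.73, 4.70 and 3.73. Stem and proliferating cell genes were higher in ileum for 13 of 17 (8 centred), among them Axin2 (-2.53), Lgr5, the stem cell marker (-1.59), and Mki67, a marker of dividing cells (-2.10). Goblet genes were higher in ileum for 11 of 14 as deposited and for 2 after centring, a share near the 13.9% of all genes, when 1 was higher in duodenum. Muc2, the main mucin, stayed called, at 5.79 to 6.03 against 4.22 to 4.34. Of the 11 hormone and enteroendocrine genes tested 4 were higher in each region as deposited, and 6 in duodenum and 3 in ileum once centred, with a median 1.16 above that of all genes. Cck, Gip and Ghrl were higher in duodenum by 1.23, 1.22 and 1.21, and Nts, Gcg and Pyy higher in ileum, with differences of -5.24, -2.48 and -2.52. Epithelial markers were also higher in ileum, as given above, and their part in the Paneth and stem cell values was not tested.

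Sterol synthesis genes were higher in ileum for 21 of 27 and in duodenum for 1 (19 and 1 centred), with a median of -1.66 relative to all genes. Sqle, the squalene epoxidase, was at 6.31, 6.90, 6.44 and 6.36 in ileum and at 3.24, 2.88, 2.65 and 3.33 in duodenum, a difference of -3.48 (SE 0.33, limma adjusted p = 6.31e-08). The groups did not overlap. The list's median relative to all genes was -1.38 in SBR vehicle and -0.34 in sham.

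Of 30 interferon genes 7 were higher in duodenum and 3 in ileum (13 and 0 centred), against 7.13% and 48.7% of all genes. Without ileum library 2 the as-deposited counts were 2 and 3. Isg15, an interferon-induced ubiquitin-like protein, was at 5.66, 5.19, 6.13 and 6.21 in duodenum and at 3.13, 1.12, 3.14 and 5.08 in ileum. Irf1 and Irgm2 differed by -0.15 and -0.11 and did not pass. MHC class I genes were higher in duodenum for 3 of 14 and in ileum for 1 (6 and 0 centred). MHC class II genes gave 1 call among 7, and none once centred. All 6 tested T and NK cell markers were higher in duodenum once centred, against 2 as deposited.

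**Figure D2:**
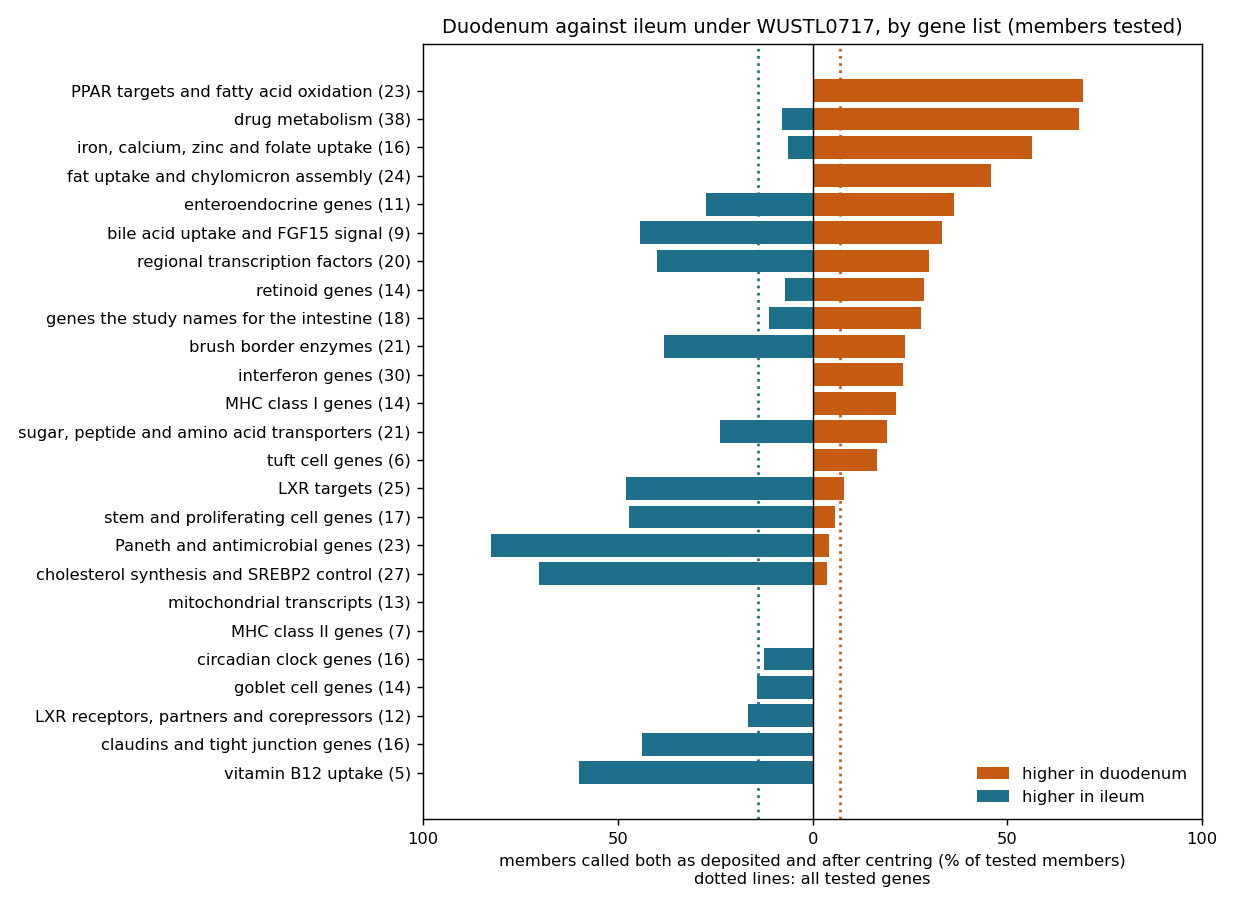
Share of tested members of each pathway list that were called higher in duodenum (right) or in ileum (left) both as deposited and after centring, in percent, with dotted lines for all tested genes (7.13% and 13.9%). PPAR targets, drug metabolism and mineral uptake reach farthest to the right among these lists, and Paneth genes and sterol synthesis farthest to the left; marker lists of cell types are not plotted.

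The regional pattern was looked up in the vehicle and sham libraries, whose means the comparison did not use, although they share its estimate of the spread. Of the 1136 duodenal genes, all had the same sign in SBR vehicle and 93.6% were called there, while 97.1% had the same sign in sham and 61.8% were called, each with centred libraries. Of the 2215 ileal genes, 98.1% and 88.2% had the same sign and 65.7% and 23.7% were called. Among all tested genes 70.2% and 67.9% had the same sign, and 27.4% and 11.5% were called with it. The sham groups held 3 libraries each, and fewer genes were called between their regions in all (2020 centred, against 4737 under WUSTL0717).

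**Figure D3:**
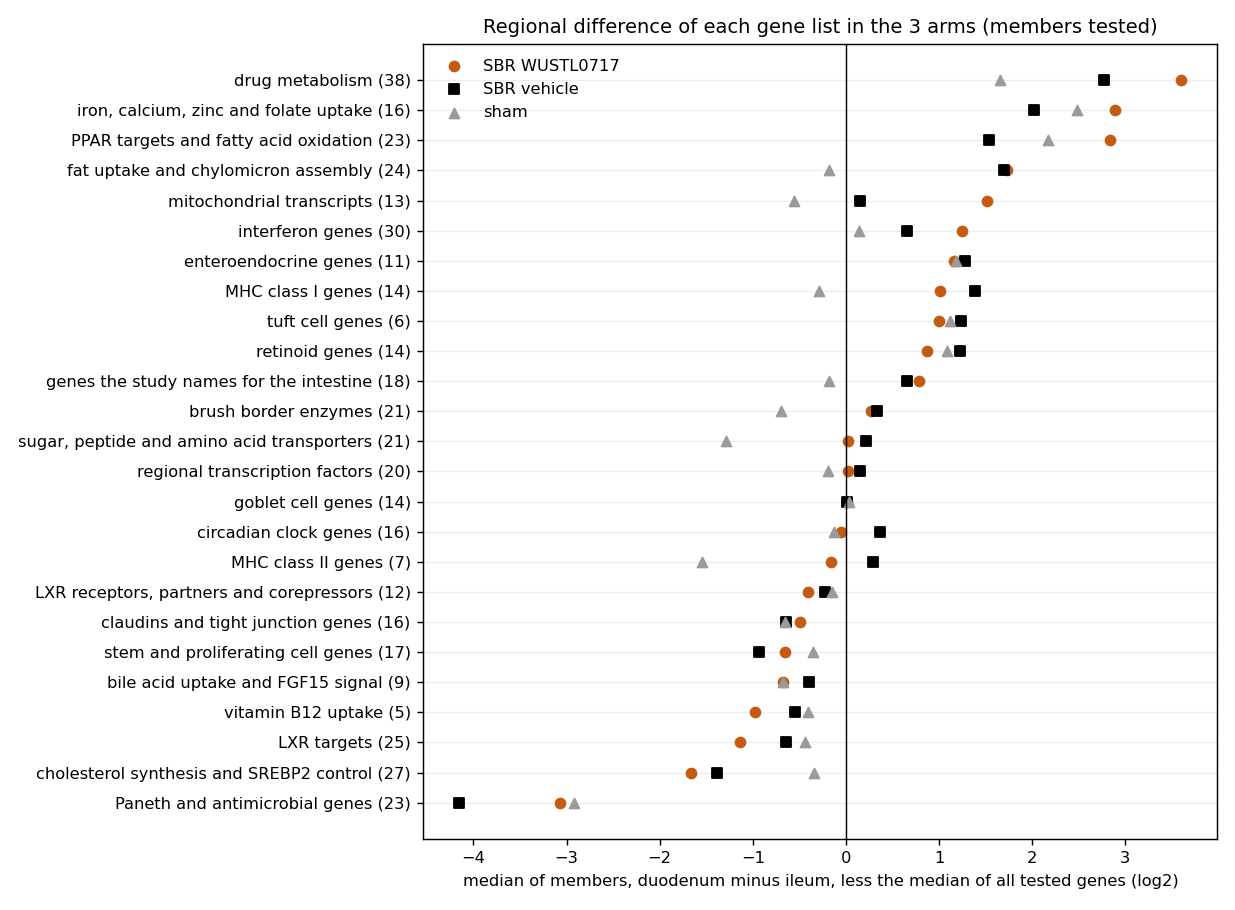
Median of each list's members for duodenum minus ileum, less the median of all tested genes (log2 units on the horizontal axis), in SBR WUSTL0717 (circles), SBR vehicle (squares) and sham (triangles). PPAR targets sit at 2.83 under WUSTL0717, 1.54 in SBR vehicle and 2.17 in sham, and fat uptake at 1.73, 1.70 and -0.18.

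Against sham, the regional difference under WUSTL0717 changed in 48 genes (0.301%), upward in 31 and downward in 17 as deposited. It changed in 158 genes (0.992%) once centred, upward in 120 and downward in 38. This contrast combines the operation and the drug. Marker levels also differed between these duodenum groups. Gastric markers averaged 5.97 to 6.65 in sham duodenum and 0.66 to 5.77 in treated duodenum. Brunner gland markers averaged 7.37 to 8.73 and 3.04 to 8.09. The part of this in the contrast was not tested. Fat uptake genes were near the median of all genes in sham (-0.18) and above it in both resected groups (1.73 and 1.70). Bco1, which cleaves beta-carotene, was at 4.85, 5.30, 4.54 and 3.67 in ileum under WUSTL0717 and at 1.90, 1.75 and 1.69 in sham ileum, while duodenum stayed between 1.05 and 1.74 in both groups, so the regional difference moved by -3.07 (limma adjusted p = 0.00169). It was -2.64 in SBR vehicle, without the drug. Slc10a2 behaved alike, with ileum at 6.16 to 7.19 under WUSTL0717, 6.74 to 6.98 in SBR vehicle and 4.42 to 5.17 in sham. Gpat3, a triglyceride synthesis enzyme, differed by -0.81 under WUSTL0717 and -3.32 in sham, and its direction under WUSTL0717 turned to 0.07 when centred. Without 1 library at a time this contrast gave 8 to 95 calls, so its count is a loose one.

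The response to WUSTL0717 was then compared between the regions as an interaction, the duodenal response minus the ileal one. In duodenum 101 genes rose with the drug against SBR vehicle (0.634%) and 17 fell, and in ileum 14 rose (0.0879%) and 2 fell. These 118 and 16 calls became 9 and 1 with only the groups compared in the fit. Without 1 library they ran from 67 (WUSTL0717 library 3) to 162 in duodenum, and in ileum from 5 (vehicle library 2) to 22, with 7 without WUSTL0717 library 3. These counts alone do not show that the regions differ. The interaction itself passed the test in 4 genes (0.0251%), Cyp4a31, Ephx1, Acot1 and Ugt1a9, all with the larger rise in duodenum, and 530 genes had an unadjusted p under 0.05. In simulated data this test recovered 4% of changes of 1 log2 unit, 42% of 2 and 70% of 3. A small count therefore does not show that the other responses were alike. The 4 called genes all encode enzymes of lipid or foreign compound metabolism, a grouping made after they were seen and not tested. Gene positions are those of GENCODE vM21 on GRCm38.

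Cyp4a31 (ENSMUSG00000028712, chr4:115563649-115579015, plus strand), a fatty acid hydroxylase, was at 4.82, 5.44, 5.43 and 5.80 in duodenum under the drug and at 2.64, 2.29, 1.63 and 2.65 in SBR vehicle. In ileum it was at 1.37, 1.32, 1.57 and 1.32 under the drug and 1.32, 1.32, 1.32 and 1.38 in vehicle, where 2 and 3 of the libraries were at the gene's lowest value. The responses were 3.07 and 0.06, and they differed by 3.01 (SE 0.37, limma adjusted p = 0.00105). Among the SBR groups it was highest in treated duodenum. Of 28 alternative settings 27 kept the call, with adjusted p up to 0.0389, and in the other, a mean of at least 3, the gene was not tested. Cyp4a genes are close relatives, so reads among them may be split.

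Ephx1 (ENSMUSG00000038776, chr1:180976210-181020904, minus strand), the microsomal epoxide hydrolase, was at 9.57, 8.10, 8.93 and 9.78 in treated duodenum and at 5.90, 5.23, 5.17 and 4.99 in vehicle. In ileum it was at 5.44, 6.60, 5.62 and 5.64 with the drug and 5.40, 5.10, 6.06 and 5.64 without. The responses were 3.77 and 0.28, a difference of 3.50 (SE 0.53, limma adjusted p = 0.0106). Ileal groups overlapped and duodenal groups did not. The call held in 25 of 28 alternative settings, with adjusted p up to 0.255, and was lost with the groups compared alone, in the unmoderated test and with a replicate block.

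Acot1 (ENSMUSG00000072949, chr12:84009490-84018371, plus strand), an acyl-CoA thioesterase, was at 5.85, 5.80, 6.29 and 6.73 in treated duodenum and at 2.28, 3.54, 2.02 and 2.84 in vehicle, with 2.31, 2.42, 2.80 and 2.52 and then 2.18, 1.84, 1.68 and 3.00 in ileum. The responses differed by 3.16 (SE 0.50, limma adjusted p = 0.0123). This call held in 22 of 28 settings, with adjusted p up to 0.263, and was lost with centred libraries, quantile normalization, log2(TPM + 0.1) and the 3 settings in which Ephx1 was lost. Acot1, Acot2 and Acot3 share sequence. Ugt1a9 (ENSMUSG00000090175, chr1:88070800-88218997, plus strand), a glucuronosyltransferase, was at 5.59, 5.13, 5.88 and 5.59 in treated duodenum, 2.52, 3.57, 2.55 and 3.41 in vehicle, and between 1.16 and 1.56 in all 8 ileum libraries. Its difference of 2.49 (SE 0.44, limma adjusted p = 0.0445) passed in 6 of 28 alternative settings and was lost, among others, without duodenum library 1 (2.47, adjusted p = 0.0898) and without ileum library 2 (2.41, adjusted p = 0.144). Ugt1a genes share exons.

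**Figure D4:**
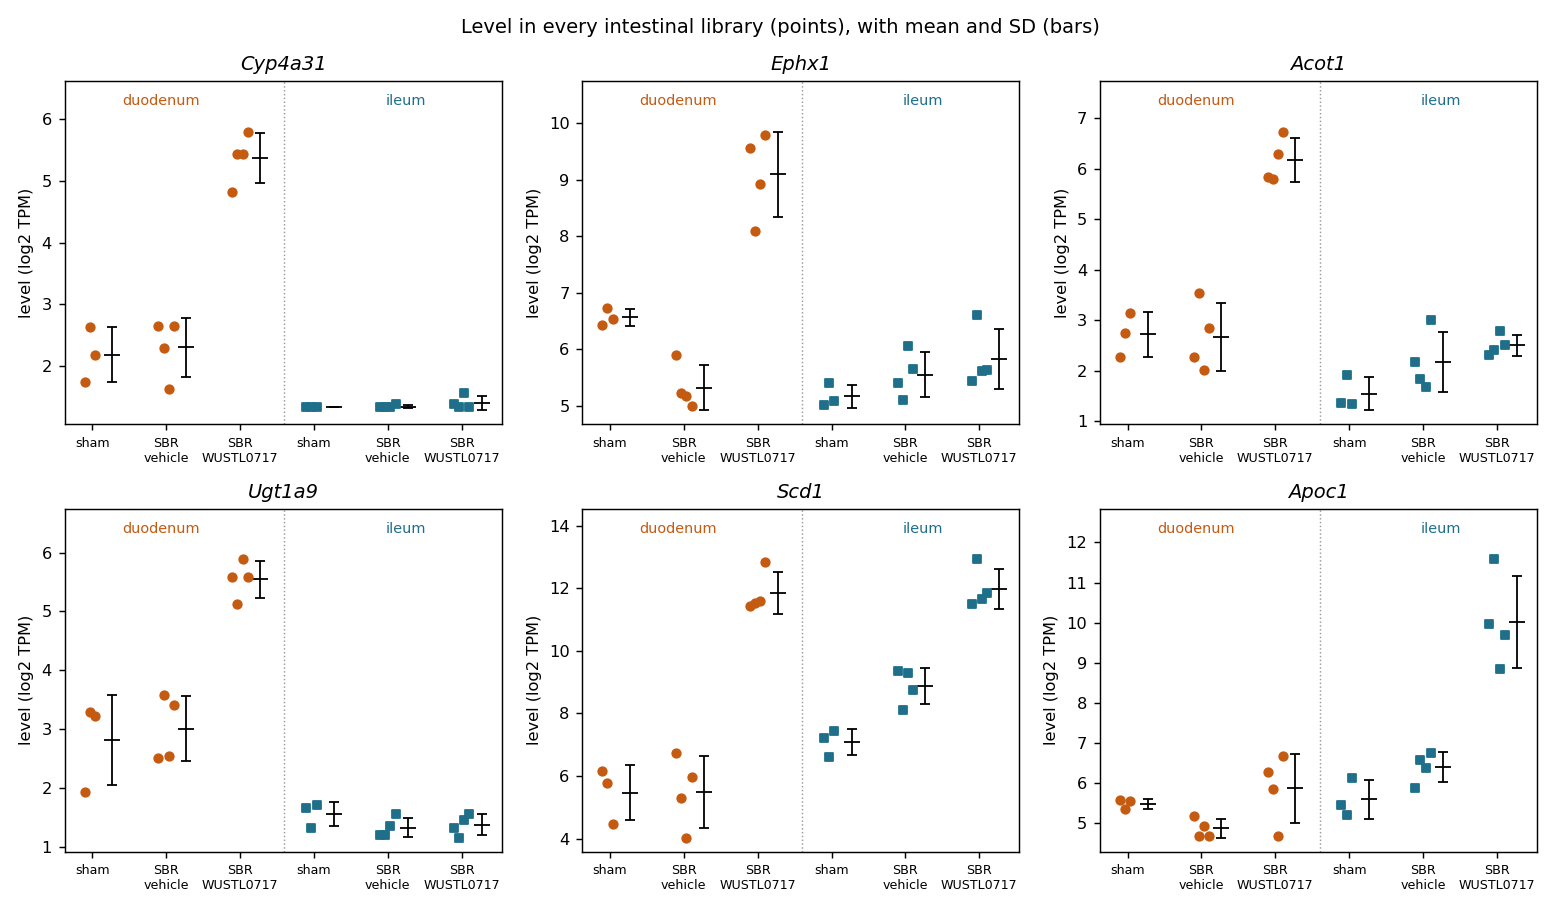
Level in every intestinal library (points, log2 TPM) with the mean and SD of each group (bars), for the 4 genes whose drug response differed between regions and for Scd1 and Apoc1; 3 libraries per sham group and 4 per SBR group. Among the SBR groups the upper row and Ugt1a9 are highest in treated duodenum, and Apoc1 in treated ileum. Scd1 reaches 11.42 to 12.92 in both treated regions from a lower duodenal start.

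Related genes that did not pass ranked next. Decr2, a peroxisomal dienoyl-CoA reductase, differed by 2.52, Cyp4a32 by 2.48, Cyp4f15 by 2.43 and Ugt2b37 by 1.86, each at a limma adjusted p of 0.174. Decr2 passed in 3 alternative settings, centring among them. Acot3 and Gsta2 differed by 1.85 and 1.41. In the other direction no gene passed. Usp2, a clock-linked deubiquitinase, was at 3.71, 5.42, 4.27 and 4.86 in treated duodenum and at 6.46, 6.37, 6.36 and 6.54 in vehicle, while ileum lay from 4.20 to 5.20 and from 3.27 to 4.60, an interaction of -2.32 (limma adjusted p = 0.344). Procedures took place in the light phase, and the hour for each mouse is not given in the sources used here. Of 16 clock genes 1 fell in duodenum with the drug and 0 in ileum, against 0.107% and 0.0126% of all tested genes. The 1 was Dbp, a clock output factor, which fell by 2.47. Dbp did not pass without duodenum library 3 of the WUSTL0717 group (-2.08) or without library 3 or 4 of the SBR vehicle group (-2.06 and -2.50), with limma adjusted p up to 0.111.

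PPAR targets and fatty acid oxidation genes had a median interaction of 1.37. That of the pancreas markers was 2.09, and that of 13 mitochondrial transcripts 1.01, positive for 13 of 13 with none at an unadjusted p under 0.05. Without ileum library 2 the PPAR and mitochondrial medians were 1.44 and 1.55. The median response was 1.49 in duodenum and 0.19 in ileum, against 0.04 and 0.00 for all genes, and 7 of 23 rose in duodenum and 0 in ileum. For 17 members the treated duodenum libraries all lay above the vehicle ones, and for 0 members in ileum, against 2.05% and 2.59% of all tested genes. The interaction was positive for 22 of 23, against 8384 of the 15923 tested genes. Of the 23, 12 had an unadjusted p under 0.05, against 2.08% of all genes in this direction and 1.25% in the other, but none was called. Without ileum SBR vehicle library 4, an alternative chosen after seeing the data, 7 members had an unadjusted p under 0.05 and the median interaction was 0.96. Hadhb, of the mitochondrial oxidation complex, responded by 2.07 and -0.01, Acot2 by 2.98 and 0.80, and Cyp4a10, a fatty acid hydroxylase, by 3.10 and 1.28. Hadhb was picked after its values were seen. The regional difference itself was higher in duodenum for 16 of 23 and in ileum for 1 (20 and 0 centred). Cyp4a10 was at 9.05, 9.05, 9.36 and 9.49 against 4.17, 4.30, 4.93 and 3.82, Ehhadh, of peroxisomal oxidation, differed by 3.82 and Acaa2 by 3.30. Of the receptors, Pparg differed by 2.12 and Ppara by 1.06, which did not pass as deposited (limma adjusted p = 0.0877). Pancreas genes also had a positive median response in duodenum, 2.07, with 0 of 10 called and vehicle libraries from 1.71 to 6.62, and the part of these genes and of the mitochondrial transcripts in the PPAR values was not tested.

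Drug metabolism genes had a median interaction of 0.65. Their median response was 1.28 in duodenum and 0.81 in ileum, with 14 of 38 and 1 of 38 called higher, against 0.634% and 0.0879% of all tested genes. The interaction was called for Ephx1 alone and was positive for 27, against 8384 of the 15923 tested genes. It had an unadjusted p under 0.05 for 10, all in the duodenal direction, against 2.08% of all tested genes. Cyp2c29 responded by 3.48 and 0.79, Gstm1, a glutathione transferase, by 2.35 and 0.35, and Ces1e, a carboxylesterase, by 1.57 and -0.22. These 3 were picked after their values were seen. Ces2a, an intestinal carboxylesterase, rose in both regions, by 3.83 in duodenum and 2.54 in ileum. By region 26 of 38 were higher in duodenum and 4 in ileum (29 and 3 centred). Ces2g was at 6.48, 5.96, 6.58 and 6.25 against 2.43, 2.86, 2.53 and 2.62, Gstm3 differed by 5.88, Adh1, an alcohol dehydrogenase, by 4.97 and Gsta4 by 3.95, while Cyp2u1 differed by -4.03. Gstm3 was among the genes whose regional difference was larger than in sham, by 3.59 (limma adjusted p = 0.0118).

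**Figure D5:**
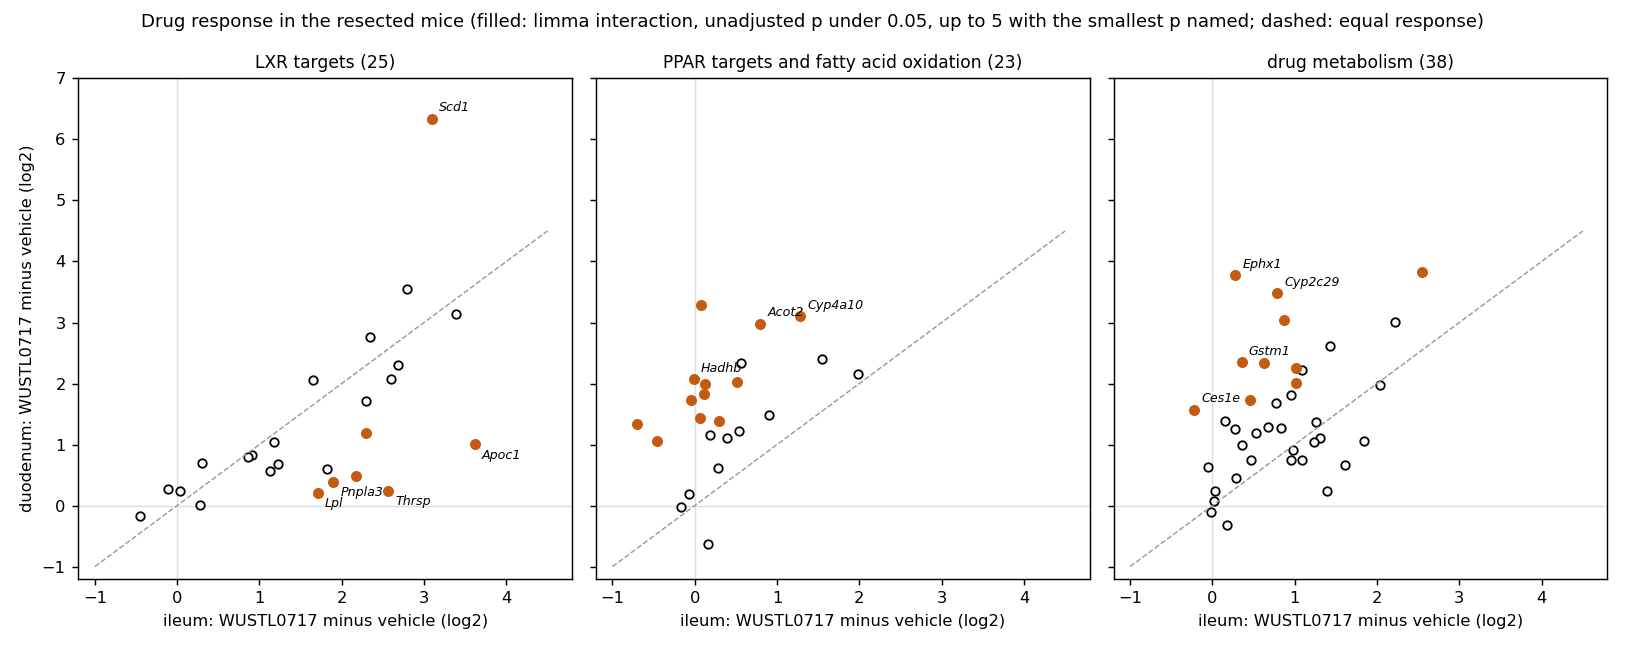
Response to WUSTL0717 in ileum (horizontal) and duodenum (vertical), SBR WUSTL0717 minus SBR vehicle in log2 units, for tested members of 3 lists; filled points have an unadjusted interaction p under 0.05 and the dashed line marks equal response. PPAR and drug metabolism genes lie mostly above the line, and the LXR targets lie on both sides, with Scd1 at 6.34 in duodenum and 3.10 in ileum.

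LXR targets responded in both regions. Of 25 tested, 24 had a positive response in duodenum and 23 in ileum, with 6 called in each. Of the 15923 tested genes 8590 and 8024 were positive, and 0.634% and 0.0879% were called higher. The median response was 0.80 in duodenum and 1.82 in ileum, the ileal value being 1.35 without ileum library 2. Abca1, the cholesterol efflux pump, rose by 3.55 in duodenum (5.46, 7.23, 6.14 and 7.42 against 2.66, 2.56, 4.12 and 2.71) and by 2.79 in ileum (6.55, 7.97, 7.43 and 7.81 against 4.85, 4.07, 4.78 and 4.90). Abcg5, which forms the sterol exporter with Abcg8, rose by 2.30 and 2.68, and Srebf1, the lipogenic factor, by 3.13 and 3.39. With only the groups compared in the fit none of these 6 responses passed. Without ileum SBR vehicle library 2 the ileal response of Abca1 did not pass (limma adjusted p = 0.0553), and without 1 library the responses of Abcg5 had an adjusted p up to 0.143 and 0.193 and the ileal response of Srebf1 up to 0.098. The interaction of these 3 genes was 0.76, -0.39 and -0.26 (SE 0.62, 0.73 and 0.86), so the spread leaves a difference of either sign possible. Scd1, the stearoyl-CoA desaturase, started from 6.73, 5.28, 4.02 and 5.96 in vehicle duodenum and from 9.37, 8.12, 9.30 and 8.76 in vehicle ileum, and reached 11.42, 11.53, 11.58 and 12.83 and then 11.50, 12.92, 11.66 and 11.84 with the drug. Its interaction was 3.25 (SE 0.76) with a limma adjusted p of 0.356, and it passed when limma library weights were used.

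In 6 LXR targets the ileal response was the larger at an unadjusted p under 0.05, against 1.25% of all tested genes. The count was 3 without ileum library 2, when the list's median interaction went from -0.27 to 0.01, and 3 without ileum SBR vehicle library 4. Apoc1, an apolipoprotein gene beside Apoe, was at 9.96, 11.58, 8.85 and 9.69 in treated ileum and 5.89, 6.58, 6.39 and 6.75 in vehicle ileum, and between 4.69 and 6.68 in all 8 duodenum libraries, an interaction of -2.62 (limma adjusted p = 0.601). Without ileum library 2 it was -2.10. Thrsp, a lipogenic nuclear protein, Lpl, a lipase, Pnpla3, Apoe and Abcg1 gave -2.33, -1.50, -1.51, -1.69 and -1.12. Thrsp was at 7.11, 10.54, 7.32 and 7.45 in treated ileum, and without library 2 its interaction was -1.52. These genes are also used by hepatocytes, fat cells or macrophages. Adipocyte markers averaged 4.83 to 6.39 in treated ileum and 3.75 to 4.07 in vehicle ileum, and the median interaction of the 3 tested of 6 listed was -1.37, and -0.85 without ileum library 2. Red blood cell markers had a median ileal response of 1.83 and a median interaction of -1.40, with 0 of 5 interactions called. Their mean ran from 1.08 to 5.97 over the vehicle ileum libraries. The part of all these cells in the result was not tested.

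At the end of treatment 16 of 25 LXR targets were higher in ileum and 2 in duodenum as deposited, and once centred 12 and 2, with 11 not called. Apoc1 differed by -4.15, Thrsp by -4.66, Fasn by -3.25 and Abcg1 by -2.10. Smpdl3a and Elovl6, a phosphodiesterase and a fatty acid elongase, were the 2 higher in duodenum, by 2.67 and 2.96. Abca1, Abcg5, Srebf1 and Scd1 differed by -0.88, -0.68, -0.19 and -0.14, none passed, and each turned positive when the libraries were centred (0.01, 0.20, 0.69 and 0.74). Nr1h3, which encodes LXR alpha, differed by -1.59 and did not pass centred (limma adjusted p = 0.139), and Nr1h2, LXR beta, differed by -0.23.

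The antimicrobial lectins Reg3b and Reg3g fell in duodenum with the drug. Reg3b went from 6.34, 6.15, 6.65 and 6.77 to 3.89, 4.72, 4.60 and 4.34, a response of -2.09 (limma adjusted p = 0.00143), and Reg3g responded by -1.71 (0.00748 on the same test). In ileum the responses were -0.79 and -0.96 and did not pass. The interactions, -1.30 and -0.74, did not pass either, so a different response was not shown. Under WUSTL0717 Reg3b and Reg3g were higher in ileum, with differences of -2.15 and -2.09, and the libraries did not overlap.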

How the data were processed

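RNA from whole duodenum and ileum was depleted of ribosomal RNA and copied with random hexamers. Per the labels and the study's methods, reads were aligned with STAR to GRCm38 and uniquely aligned reads were counted with Subread featureCounts on Ensembl genes. The authors deposited log2 TPM values adjusted with ComBat, with both regions in 1 batch. The pseudocount is not given in the sources used here, and the depth of each library is unknown. The adjustment shifts each gene, so a TPM of 0 lies at a different value for each gene, and values ran from -1.688 to 18.421. From these, limma 3.58.1 in R 4.3.3 fitted 6 groups over 22 intestinal libraries, letting the variance follow the mean level, with p-values adjusted by Benjamini-Hochberg, on genes with a mean of at least 1. An exact permutation test over libraries was also run, and for the 30 leading genes its outcome was fixed by the rule that chose them. The scripts were tested on simulated data. Figures were drawn with matplotlib 3.10.9.

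The genes named are the 15 with the smallest p in each direction among non-overlapping called genes with a symbol (175 and 1177 called transcripts without one were left out), the 10 leading interactions in each direction, up to 6 members with the smallest p per list, short lists in full, and the LXR targets. Others are named as picked after their values were seen, or belong to a list described there. Members and lists were chosen with earlier results of these data known. Labels do not say which libraries came from separate mice, so p-values measure the spread between libraries. Alternatives were filters, pseudocounts, scalings, other limma settings, a replicate block and leaving out libraries. A few list members are counted in their lists but not reported here by name.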

Additional observations from a re-analysis of the deposited data

Results flagged for a closer look

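In the 4 genes called for the interaction, the response to WUSTL0717 was larger in duodenum than in ileum, by 3.01 for Cyp4a31, 3.50 for Ephx1, 3.16 for Acot1 and 2.49 for Ugt1a9 on the log2 scale.

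The regional difference under WUSTL0717 differed from that in sham, by the limma adjusted p of the difference itself, for 11 named genes. It was higher by 3.59 for Gstm3 (0.0118), 3.12 for Cyp4a31 (0.000556), 2.91 for Ugt1a9 (0.00743), 2.78 for Gsta2 (0.000556), 2.51 for Gpat3 (0.0466), 2.48 for Acot1 (0.0476) and 1.96 for Ugt2b37 (0.0473). It was lower, at -4.04 for Apoc1 (0.021), -3.07 for Bco1 (0.00169), -3.00 for Lpl (0.0494) and -1.82 for Slc10a2 (0.0469). Ephx1 was not among these 11 genes.

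A library lay far from the other 3 of its group in 13 of 172 groups looked at (7.6%), and chance gives about 1 in 20. In ileum library 2 these were the median over genes at 3.83 (others 3.26 to 3.35), hepatocyte markers at 8.32 (6.28 to 6.58), Pcx at 9.27 (6.10 to 6.51), Ephx1 at 6.60 (5.44 to 5.64), Slc5a8 at 4.52 (4.28 to 4.31) and Sult6b2 at -1.15 (-1.30 to -1.28). In duodenum library 4 they were Scd1 at 12.83 (11.42 to 11.58), macrophage and dendritic markers at 2.71 (3.34 to 3.44) and a neutrophil marker at 1.77 (0.75). In duodenum library 1 they were gastric markers at 5.77 (0.66 to 1.42) and Onecut2 at 5.77 (5.61 to 5.64). Gsta2 stood at 1.59 in ileum library 1 (1.20 to 1.25) and Pak6 at 0.68 in ileum library 3 (0.97 to 0.99).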

How the results depend on the processing

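The count of regional calls under WUSTL0717 went from 8895 to 4877 on the 8018 genes with a mean of at least 3, where fewer genes were tested, to 4737 with centred libraries and to 4883 after quantile normalization, and lay between 7392 and 9072 without 1 library. The interaction had 4 calls, 9 with log2(TPM + 5), 8 with library weights, 2 each with log2(TPM + 0.1), a mean of at least 3 and quantile normalization, 1 each with the groups compared alone and unmoderated, and 3 to 4 without 1 library. The cause was not tested. The labels do not say that a replicate number marks 1 mouse, and not every same-number correlation passed 0.1 (-0.08, 0.32, -0.07 and 0.21 under WUSTL0717, 0.13, 0.00, -0.14 and 0.08 in SBR vehicle, 0.36, 0.07 and 0.45 in sham), so the numbers were not used as pairs, and sharing of mice was not settled by this. In 2 of 4, 2 of 4 and 2 of 3 cases the best partner had the same number. With a replicate block the counts were 9246 and 1. Without duodenum library 1 and ileum library 2 together, chosen after seeing the data, they were 7929 and 6.

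In SBR vehicle the regional calls were 9068 as deposited, 4948 centred and 7587 to 9734 without 1 library. In sham they were 2331 as deposited, 1419 with the groups compared alone and 1260 to 1844 without 1 library. The contrast with sham gave 158 centred, 13 with the groups compared alone and 8 to 95 without 1 library. Drug calls with the groups compared alone were 9 in duodenum and 1 in ileum, and without 1 library 67 to 162 and 5 to 22.

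Of 2649 alternative values for 134 genes in the regional comparison 2589 kept direction and side of the threshold, and of 1332 for 48 genes in the interaction 1282 did. For the drug response 117 of 140 values did in duodenum and 45 of 70 in ileum, and the other 23 and 25 no longer passed. In the regional comparison 5 genes changed sign in some setting, and in the interaction 2 did, so their directions depend on the setting. Centred regional differences were 0.07 for Gpat3, 0.01 for Abca1, 0.20 for Abcg5, 0.69 for Srebf1 and 0.74 for Scd1, and after quantile normalization 0.06 for Gpat3. Library weights gave 0.07 for Scd1 by region and 0.20 for the Abcg5 interaction. Without 1 library Scd1 by region ran from -0.47 to 0.17, Srebf1 from -0.84 to 0.30, and the interactions of Srebf1 from -0.91 to 0.23 and of Abcg5 from -0.82 to 0.16. Without both libraries Srebf1 and Scd1 by region were 0.47 and 0.31, and the Srebf1 and Abcg5 interactions 0.40 and 0.03. Depth was unknown, so low values carry an unstated error.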

Other observations

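Ileum SBR vehicle library 2 carried low levels of duodenal genes, with Akp3 at 3.21, Sult6b2 at 1.57, Tmprss15 at 0.55, Pdx1 at 0.47 and Otop3 at 0.18. This library enters the drug response in ileum and the interaction, and the regional comparison under WUSTL0717 only through the shared estimate of the spread. With only the 2 groups of that comparison in the fit, 8655 genes were called in place of 8895.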
